A study of Homo sapiens with 2 samples.

Results

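The regions described here are the mERG peaks of chromosome 21, the chromosome that carries both partners of the TMPRSS2-ERG fusion. They were chosen by their measured position in the peak list, and 503 of the 18070 peaks lay on this chromosome. ChIP-seq was done with an antibody to mono-methylated ERG (mERG) in VCaP, an established prostate cancer cell line that carries the fusion. A single ChIP library (n = 1) was sequenced with a single control (n = 1), and the labels of that control name input as well as IgG, so what it was is not settled. No value has a replicate, the depth of the libraries is unknown from the list, and the copy number of chromosome 21 was not analysed here. Peak position, score, width, location class and gene all come from the same list that chose the regions, and they are given below as a description, with no test.

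ERG is a transcription factor of the ETS family, whose members bind DNA around the core GGAA. TMPRSS2 encodes a serine protease of the prostate epithelium that androgens induce. The genes lie on the long arm of chromosome 21 in the same orientation, and the fusion places the coding part of ERG behind the start of TMPRSS2. EZH2, the methyltransferase of the Polycomb complex PRC2, can methylate a lysine of ERG, and the antibody was raised against that methylated form.

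The DNA under a few of these peaks is shown first, because they are the peak inside ERG, the peak named for TMPRSS2, and the strongest peak in DIP2A, which scored higher than both. Each line gives the 201 bp centred on the peak, on the plus strand of hg19 (GRCh37), 5′ to 3′. Capitals mark GGAA and TTCC, the same ETS core letters read on the other strand.
ERG intron (chr21:39943794-39943994): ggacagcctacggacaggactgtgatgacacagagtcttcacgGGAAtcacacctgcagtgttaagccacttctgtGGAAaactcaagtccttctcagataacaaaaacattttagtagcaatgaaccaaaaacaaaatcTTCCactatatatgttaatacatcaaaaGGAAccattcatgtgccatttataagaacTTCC
upstream of TMPRSS2 (chr21:42913450-42913650): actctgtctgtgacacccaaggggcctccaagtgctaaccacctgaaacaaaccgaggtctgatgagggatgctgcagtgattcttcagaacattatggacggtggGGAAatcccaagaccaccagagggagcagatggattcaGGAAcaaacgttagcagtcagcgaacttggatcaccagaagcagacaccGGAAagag
DIP2A intron (chr21:47899085-47899285): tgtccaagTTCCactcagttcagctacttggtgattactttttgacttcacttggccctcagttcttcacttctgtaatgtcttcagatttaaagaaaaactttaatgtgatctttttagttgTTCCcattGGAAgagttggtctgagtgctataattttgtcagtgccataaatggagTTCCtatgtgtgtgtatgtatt
The window inside ERG held 5 such cores over both strands, and its peak scored 35.9. There were 3 in the window upstream of TMPRSS2, whose peak scored 55.3, and 4 in the DIP2A window, whose peak scored 129.2. The number of cores in these 3 windows therefore did not follow the score. The longer ETS core CCGGAAGT, allowing 1 mismatch beyond the GGAA letters, was in none of them.

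Chromosome 21 was among the chromosomes densest in mERG peaks. It carried 10.5 peaks per Mb, rank 5 of 24 chromosomes, whose median was 5.06. The chromosomes set beside it were chromosome 20 with 13.2 peaks per Mb, chromosome 17 with 15.3 and chromosome 22, close to it in size, with 3.47. Much of the short arm of chromosome 21 is a gap in the assembly. Per Mb of sequence without gaps the value was 14.3, second to chromosome 17 with 15.9. Chromosome 15 followed with 14.08 and chromosome 20 with 14.03, and chromosome 22 had 5.10. Over the full length with gaps, 28.6% of chromosome 21 is protein-coding gene body, against 45.2% of chromosome 20 and 55.2% of chromosome 17. Part of this contrast comes from the gap. Gene bodies took 13.8 Mb beside 35.1 Mb without gaps on chromosome 21, and 28.5 Mb beside 59.5 Mb on chromosome 20. When the 442 peaks centred inside protein-coding genes were counted per Mb of gene body, chromosome 21 had 32.1 and ranked first, before chromosome 20 with 28.2 and chromosome 17 with 25.9. It also ranked first with a minimum score of 50, with the stronger 50% of peaks and without the highest 1% of scores. Without the DYRK1A body (chosen after seeing the data, with no gene taken from the other chromosomes) chromosome 21 had 27.7 and came second to chromosome 20. It also came second, with 12.8 against 14.4 on chromosome 20, when peaks under 5 kb apart were counted as 1 cluster.

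**Figure D1:**
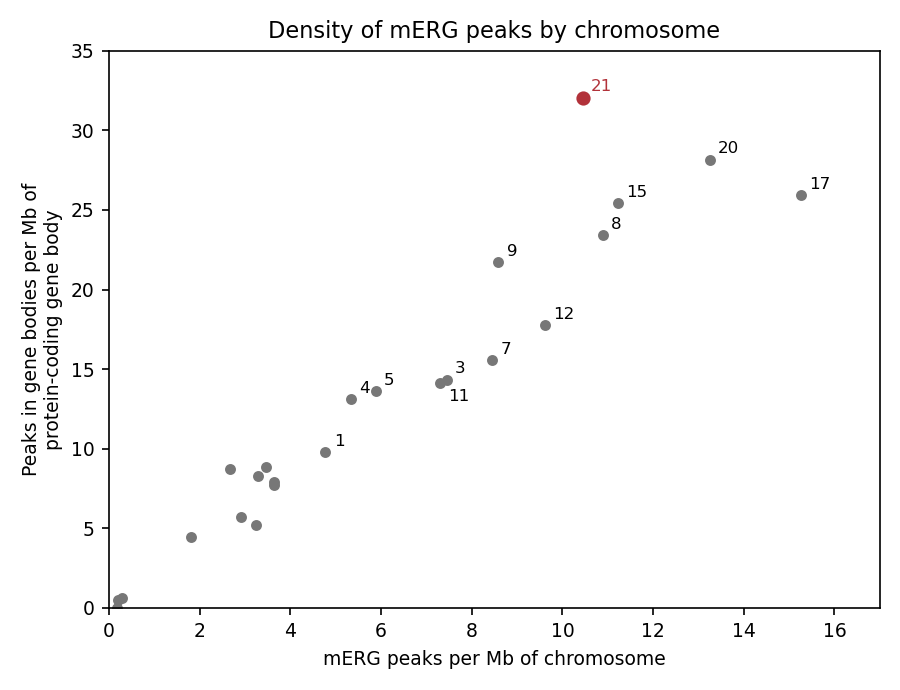
Each point is 1 of 24 chromosomes, with mERG peaks per Mb of chromosome on the horizontal axis and peaks centred in protein-coding genes per Mb of gene body on the vertical axis. Chromosome 21 (red) lies above the others on the vertical axis at 32.1 and ranks 5 on the horizontal axis at 10.5; points under 4.5 peaks per Mb carry no chromosome name.

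Along the chromosome the peaks were gathered in a few places. Of the 17 steps of 2 Mb with more than 1 Mb of assembled sequence, the median held 23 peaks, 6 held fewer than 6 and 1 held none. The 4 fullest steps held 289 of the 503 peaks (57.5%). The fullest was the step from 38 to 40 Mb with 109 peaks (54.5 per Mb), of which 65 were named for DYRK1A. It was followed by 34 to 36 Mb with 69 peaks, around ITSN1, by 26 to 28 Mb with 64, around APP, and by 16 to 18 Mb with 47, around USP25 and a host gene of microRNAs. Among all 1560 such steps of the 24 chromosomes, where the median was 4 peaks, the step from 38 to 40 Mb ranked 11.

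The steps differed in score as well as in number. In the step from 38 to 40 Mb the median score was 53.5 and 61 of 109 peaks reached a score of 50. The median was 42.5 both around ITSN1 and around APP, and 39.70 from 16 to 18 Mb, where 8 of 47 peaks reached 50. In the step from 38 to 40 Mb, then, peaks were both more numerous and stronger. Without the DYRK1A body the fullest step was 34 to 36 Mb with its 69 peaks, and it was also the fullest when peaks under 5 kb apart were merged, with 33 clusters.

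Long stretches of the long arm were empty. The longest ran 3.98 Mb between peak centres at 18978137 and 22960845 and spans NCAM2, a neural adhesion gene of 545 kb, and TMPRSS15, the gene of enteropeptidase. The next, of 2.68 Mb, holds no protein-coding gene. A stretch of 1.95 Mb from 30728848 to 32682134 spans GRIK1, a glutamate receptor gene of 403 kb, the claudin genes CLDN8 and CLDN17 and many keratin-associated protein genes, 37 protein-coding genes in all. Empty stretches thus included long genes and gene-dense sequence as well as sequence without genes. A further stretch, of 1.06 Mb, began at the last peak of DYRK1A and ended at the peak inside ERG, and spans the potassium channel genes KCNJ6 and KCNJ15.

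The interval between ERG and TMPRSS2 (39750000 to 42900000) held fewer peaks for its length than the rest of the long arm. The ratio depended on single genes and on how peaks were counted. It had 30 peaks in 3.15 Mb, 9.52 per Mb (exact Poisson 95% interval 6.43 to 13.6). The rest of 21q had 460 peaks in 30.6 Mb, 15.01 per Mb (13.7 to 16.4), which gave a ratio of 0.634 (95% interval from the 2 counts 0.438 to 0.918). Such intervals cover counting error only and treat peaks as independent, although they lie in clusters. Without the DYRK1A body, left out after its count was seen, the ratio was 0.735 (0.507 to 1.07), an interval that includes 1. Leaving a gene so rich in peaks out of the rest raises the ratio by construction. Leaving the BRWD1 body out of the interval instead lowered it to 0.243 (0.134 to 0.442), also by construction. Per Mb of protein-coding gene body, with both genes counted, the ratio was 0.384, with 27 of the 30 peaks inside such genes. Counted as clusters, no difference was seen, with 20 clusters in the interval, 6.35 per Mb, against 6.27 per Mb in the rest (ratio 1.01, 0.639 to 1.61). The 30 peaks of the interval formed 20 clusters, and the 460 of the rest formed 192. With so few clusters the limits of the ratio are wide, and a lower or a higher density of clusters is not excluded. Merging also takes most from genes dense in peaks, such as DYRK1A with 65 peaks in 3 clusters.

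The windows of the same length on each side placed the interval next to the richest stretch of the chromosome. The window before it held 127 peaks, 40.3 per Mb (33.6 to 47.97), and 65 of the 127 were in DYRK1A. The window after it held 38 peaks, 12.1 per Mb (8.54 to 16.6), an interval that overlaps that of the ERG to TMPRSS2 stretch. The interval was thus below its neighbour on the DYRK1A side, with that gene counted, and within counting error of its neighbour on the other side. Per Mb of protein-coding gene body the values were 50.3 before the interval, 13.6 in it and 19.3 after it. Over all 24 chromosomes, with assembly gaps counted in their length, the list had 5.83 peaks per Mb. The interval was above this average with all its peaks counted. Without the body of the gene BRWD1, left out after its count was seen, it had 3.65 per Mb (1.82 to 6.53), and these limits include the average. Leaving out a gene so rich in peaks lowers the value by construction, and the average kept all such genes.

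Inside the interval the peaks centred on 1 gene. BRWD1, which encodes a bromodomain protein, held 19 of the 30 peaks (63.3%) within its 137 kb. Of these, 13 were named for PSMG1, a proteasome assembly chaperone gene next to BRWD1 whose own body held no peak. The list names the gene of the nearest TSS. Scores in BRWD1 ran from 33.4 to 86.7 with a median of 51.3, and 10 of 19 reached 50. The strongest peak of the interval lay there. Outside BRWD1 the interval had 11 peaks, 3.65 per Mb, and the ratio to the rest of 21q was 0.243. This gene was left out after its count was seen.

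ERG itself held 1 peak in 282 kb of gene, at chr21:39943714-39944074, in an intron 12.98 kb downstream of the TSS that the list names. It scored 35.9, below the lower quartile of the chromosome. A second peak named for ERG, at chr21:40047857-40048222, was intergenic, 14.3 kb upstream of the TSS, and scored 33.02. TMPRSS2 held no peak in its 66.8 kb. The peak named for it, at chr21:42913310-42913790, scored 55.3 and lay 33.5 kb upstream of its listed TSS and just outside the interval. ETS2, an ETS factor gene between the fusion partners, held no peak and named none. Both fusion partners were thus nearly free of peaks.

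The remaining peaks of the interval were few, with scores on both sides of the chromosome median. B3GALT5, a galactosyltransferase gene, was named by 3 peaks with scores of 34.4, 40.4 and 57.3, the last of them intergenic. DSCAM, a neural adhesion gene of 836 kb, held 2 peaks with scores of 39.3 and 35.97, which the list named for the antisense RNA DSCAM-AS1. BACE2, a protease gene related to the beta-secretase, also held 2, with scores of 40.7 and 43.9. The first of these was given no gene name by the list, and the second was named for FAM3B, which encodes a secreted protein. The last peak before the TMPRSS2 edge, at chr21:42723577-42723894, scored 44.5, lay in FAM3B and was named for MX2, an interferon-induced GTPase gene. PCP4, a calmodulin regulator gene, was named by 1 intergenic peak that scored 49.0 and lay 87.2 kb from its TSS. In all, 6 of the 18 protein-coding genes that overlap the interval had a peak inside. The share was 29.7% over the chromosome (68 of 229) and 19.6% over all genes, and with 18 genes no difference is read from it.

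The edges of the interval fell where peaks were sparse. The last peak before the interval was at chr21:38881293-38881794 in DYRK1A with a score of 33.3, and the first inside was the peak in ERG. On the other side the last inside was the FAM3B peak and the first outside was the one named for TMPRSS2. Moving the edges to the gene ends that face each other gave a ratio of 0.696 (0.478 to 1.01), and taking both genes whole gave 0.634.

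Peaks of the interval resembled the others in score, and their widths overlapped those of the others. Their median score was 43.9, against 42.3 in the rest of 21q, and 11 of 30 reached 50 (36.7%, Wilson 95% interval 21.9 to 54.5%) against 33.7% (29.5 to 38.1%). Their median width was 447 bp (95% interval 368 to 500) against 517.5 bp (488 to 533) in the rest of 21q and 486 bp (466 to 514) on chromosome 21 without DYRK1A. The intervals overlap in both cases. None of the 30 was 1000 bp wide or more, which allows a share of up to 11.4% by the Wilson interval. Introns held 22 of the 30 peaks (73.3%, 55.6 to 85.8%), against 91.7% (88.9 to 93.9%) in the rest of 21q. The others were 3 intergenic peaks, 3 in a 3′ UTR and 2 in an exon, and those of UTR and exon were all in BRWD1.

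**Figure D2:**
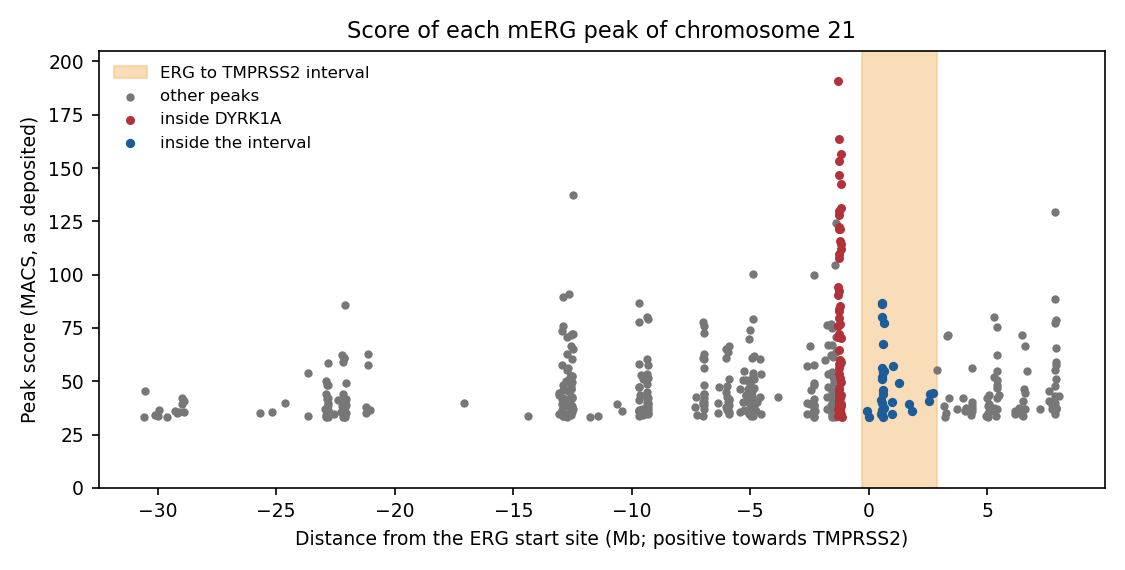
Each point is 1 of the 503 mERG peaks of chromosome 21, with the distance from the ERG start site in Mb on the horizontal axis and the deposited MACS score on the vertical axis. Peaks inside DYRK1A (red) reach 191, whereas the 30 peaks of the shaded ERG to TMPRSS2 interval (blue) reach 86.7.

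Scores are as deposited by the authors and rise as the p-value of MACS falls, so a higher score marks a peak called with a smaller p-value against the control. On chromosome 21 the score had a median of 42.2 (quartiles 36.9 and 55.7, highest 191). The 17567 other peaks had a median of 40.9 (quartiles 36.01 and 49.8) and reached 592. A score of at least 50 was reached by 166 of the 503 peaks (33.00%, 29.0 to 37.2%), against 25.0% of the whole list. Chromosome 20 had 28.4% and chromosome 22 24.7%, whereas chromosome 17 had 35.2%.

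Peaks of chromosome 21 were also wider. Their median width was 505 bp (quartiles 381.5 and 670.0, widest 2594 bp), against 398 bp (304 and 544) elsewhere. The medians were 411 bp on chromosome 20, 558 bp on chromosome 17 and 335 bp on chromosome 22. A width of 1000 bp or more was found in 35 of the 503 peaks (6.96%, 5.05 to 9.52%), against 5.77% of the whole list. Of these 35, 20 were in DYRK1A, and without that gene the share was 3.42% (2.09 to 5.57%). The median was thus above that of the list, while the share of wide peaks was near that of the list with DYRK1A and below it without. Across the 503 peaks score and width rose together (Spearman's rho 0.628, given as a description, since both come from the same libraries and the same calling).

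DYRK1A, a dual-specificity kinase gene of 161 kb, held more peaks than any other gene of the chromosome, though not more clusters. Counted as clusters of peaks under 5 kb apart it had 3, and APP had the most with 14. The list named it for 65 peaks, 12.9% of the chromosome, and all 65 lay inside it. Their median score was 60.0 and 42 of them reached 50 (64.6%, 52.5 to 75.1%), against 28.3% (24.3 to 32.7%) of the other 438 peaks. All 5 of the highest scores of the chromosome were in this gene, at 191, 163.8, 156.7, 153.3 and 146.8, and so were the 5 widest peaks, from 1804 to 2594 bp. Of the 22 peaks with a score of 100 or more on chromosome 21, 17 were in DYRK1A. Without the gene the median score of the chromosome was 41.1 and the median width 486 bp, so the score came close to that of the other peaks while the width did not.

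The peaks ran through most of DYRK1A. Together they covered 58667 bp, 36.5% of the gene, and the median distance between neighbouring centres was 1676 bp. Merged over gaps under 5 kb, 51 of them formed 1 cluster of 84.5 kb at chr21:38743474-38827948. The largest cluster of the other chromosomes had 74 peaks. Divided into 10 equal lengths, the gene held 7, 9, 11 and 11 peaks in the first 4, 8, 5, 6, 5 and 3 in the next 5, and none in the last. The first peak began 5.60 kb after the annotated start and the last ended 16.9 kb before the annotated end. The distribution was weighted to the front of the gene, with 31, 24 and 10 peaks in 3 equal lengths from its start.

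**Figure D3:**
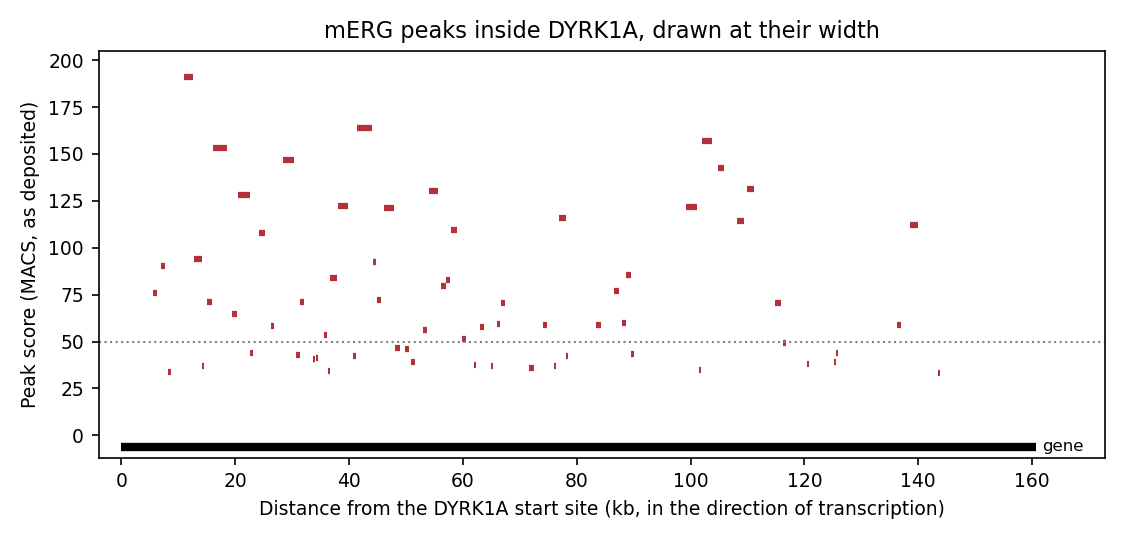
Each horizontal bar is 1 of 65 mERG peaks inside DYRK1A, drawn at its true width against the distance in kb from the annotated start of the gene, with the deposited score on the vertical axis. The black bar is the gene, the dotted line marks a score of 50, and 42 of the peaks lie above that line.

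After DYRK1A the list named APP most often, the gene of the amyloid precursor protein, with 42 peaks and a highest score of 137.2. It was followed by DIP2A-IT1 with 19, USP25 with 18, ITSN1 and MIR99A with 16 each, BACH1 and TTC3 with 15 each, ATP5PF with 14, PSMG1 with 13, and DSCR9 and SCAF4 with 12 each. These 12 genes took 257 of the 503 peaks (51.1%), whereas 30 of the 98 named genes had 1 peak. Of the 503 peaks, 321 lay inside a protein-coding gene whose current symbol they carried, and 121 lay inside one and carried another symbol or none. These 121 include 1 peak without a gene name and 3 that carry an older symbol of the gene that holds them (DOPEY2 for DOP1B, FAM207A for SLX9).

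The gene that held a peak was therefore often not the gene it was named for. All 19 peaks named for DIP2A-IT1, an intronic transcript, lay in DIP2A, a gene of 111 kb. The 16 peaks of MIR99A lay in no protein-coding gene, 19.95 kb or more from its start, and MIR99AHG, the long non-coding host gene of miR-99a, let-7c and miR-125b, held 27 peaks in all. Of the 12 peaks named for DSCR9, 11 lay in TTC3, an E3 ubiquitin ligase gene, which brought TTC3 to 26. The neighbours GABPA and ATP5PF exchanged theirs. The 9 peaks inside GABPA were named for ATP5PF, a subunit gene of the mitochondrial ATP synthase, and the 5 inside ATP5PF were named for GABPA. All 9 peaks of ATP5PO lay in ITSN1, a scaffold gene of endocytosis, which then held 25. Peaks inside a gene and peaks named for it are given separately below for this reason.

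Among the ETS factor genes of the chromosome, GABPA, whose product is the DNA-binding subunit of GA-binding protein, held 9 peaks with a highest score of 89.3, against 1 in ERG and none in ETS2. Of the 229 protein-coding genes of chromosome 21, 68 had a peak centre inside (29.7%, 24.2 to 35.9%), against 19.6% of all 20163 protein-coding genes. Overlapping genes share peaks in such counts.

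Of the 16 transcription and chromatin factor genes, 8 held a peak and 9 were named by at least 1, beside 29.7% of all protein-coding genes of the chromosome with a peak. Among the 8, 4 held at least 7 and 4 held 1 or 2. BACH1, a heme-regulated repressor, and BRWD1 held 19 each, MORC3, a nuclear ATPase of the MORC family, held 12 with a highest score of 99.9, and HLCS, which attaches biotin to carboxylases, held 7. All 7 peaks named for CHAF1B, a chromatin assembly factor subunit, lay in MORC3. RUNX1, a regulator of blood formation with 1217 kb of annotated gene, held 1 peak that scored 42.5, and NRIP1, a corepressor of nuclear receptors, held 2. The zinc finger genes PRDM15 and ZBTB21 held 2 and 1. None was centred in OLIG1, OLIG2, SON, AIRE, DNMT3L, HMGN1, SIM2 or CHAF1B.

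Of the 9 kinase and signalling genes, 5 held a peak, beside the same 29.7%. They held 103 peaks, of which DYRK1A had 65, against 64 in the metabolic and housekeeping genes, 63 in the transcription and chromatin genes and 50 in the adhesion, matrix and channel genes. The lists differ in their number of genes, and APP alone held 46 of the last 50, so the totals were not ranked. ITSN1 had 25 with a highest score of 100.2, SYNJ1, a phosphoinositide phosphatase gene of synaptic vesicles, had 8, TIAM1, an activator of Rac, had 3 in 442 kb, and PDE9A, a phosphodiesterase gene, had 2. RCAN1, a regulator of calcineurin, HUNK, SIK1 and RIPK4 held none.

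A peak was centred in 3 of the 19 adhesion, matrix and channel genes, beside 29.7% of the genes of the chromosome and 19.6% of all genes, namely APP with 46, DSCAM with 2 and CXADR, the gene of a virus receptor of tight junctions, with 2. The channel genes KCNJ6 (514 kb) and KCNJ15 (152 kb), the receptor gene GRIK1, the collagen genes COL6A1, COL6A2 and COL18A1 and the integrin gene ITGB2 held none. Of the 8 genes of proteases and secreted epithelial proteins, 2 had a peak, also beside 29.7%, with 3 peaks in BACE2 and FAM3B. TMPRSS2, TMPRSS3, TMPRSS15 and the trefoil factor genes TFF1, TFF2 and TFF3 held none, and TFF2 was named by 1 intergenic peak that scored 36.9.

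Of the 7 interferon and cytokine genes, 3 held a peak, beside 29.7% of the genes of the chromosome, with 9 peaks in all. IFNGR2 had 5 with a highest score of 54.6, IFNAR1 and IFNAR2 had 2 each, and IL10RB, ICOSLG, MX1 and MX2 had none. Metabolic and housekeeping genes included 7 of 15 with a peak, beside the same 29.7%. TTC3 had 26, USP25, a deubiquitinase gene, had 18 with a highest score of 58.6, and CRYZL1, a quinone reductase-like gene, had 10. GART, a purine synthesis gene, and USP16, a deubiquitinase of histone H2A, had 2 each, and SOD1, the cytosolic superoxide dismutase gene, had 1 although 5 peaks named it. CBS, PFKL, PDXK, CSTB, CCT8, HMGN1, ATP5PO and PSMG1 had none. HMGN1 is counted both here and among the transcription and chromatin factor genes.

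Long genes were found both with many peaks and with none. Of the 42 protein-coding genes of 100 kb or more on chromosome 21, 18 had no peak (42.86%) and 9 had at least 10 (21.4%). Overlapping genes share peaks here too. Among the 9 are ITSN1, with 25 peaks, and a longer annotated gene without a symbol that spans it, with 35. Over the genome 57.1% of 3666 such genes had none and 8.51% had at least 10. Per 100 kb, among protein-coding genes of the chromosome, DYRK1A had the most peaks, 40.4, followed by SCAF4, a gene of a protein that binds the polymerase II tail, with 26.2, ATP5PF with 26.1, GABPA and PAXBP1 with 23.8 each and TTC3 with 20.02. APP had 15.8, BRWD1 13.8, ERG 0.355 and DSCAM 0.239.

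Most peaks lay inside genes and away from starts. By the classes of the list, introns held 448 of 503 (89.1%, 86.0 to 91.5%), against 87.6% of the whole list. By GENCODE the order was the reverse, with 82.5% (78.9 to 85.6%) in introns of protein-coding genes against 86.1% of the whole list, and 87.9% (84.7 to 90.4%) in their bodies against 92.8%. Another 33 were intergenic, 8 in exons, 7 in a 3′ UTR, 2 at a transcript end and 5 in the promoter-TSS class. The share of that class was 0.994% (0.425 to 2.31%), against 0.277% of the whole list, and rests on 2 peaks of DYRK1A, 2 of APP and 1 of MIR125B2 (a gene named after its value was seen). The class uses the TSS that the list names. By GENCODE, the DYRK1A peaks, from 38790823 to 38793453, lie inside the gene, away from its annotated start at 38737875. So do the APP peaks, from 27512812 to 27513773, with the annotated start at 27543446. A peak centre lay within 5 kb of the listed TSS in 52 cases (10.3%, 7.97 to 13.3%), near the 8.72% of the whole list, and the median distance was 21.6 kb, against 27.9 kb for the other peaks. By the position inside protein-coding genes, 41.0% of 485 pairs of peak and gene fell in the first of 3 equal lengths of the gene, 35.5% in the middle and 23.5% in the last, and without DYRK1A the shares were 40.0%, 35.2 and 24.8%. A peak in overlapping genes counts once for each of them. These shares were not computed for the whole list, so nothing particular to chromosome 21 is read from them.

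Peaks of chromosome 21 lay close together. They formed 225 clusters, 143 of them single peaks, so that 360 peaks (71.6%) had a neighbour under 5 kb away, against 58.2% of the other peaks. The share was 75.7% on chromosome 17, 66.6% on chromosome 20 and 37.6% on chromosome 22. The median distance between neighbouring centres was 4.66 kb, against 8.56 kb elsewhere. Without the DYRK1A body it was 5.71 kb, and 67.4% of peaks were in clusters, still closer together than the peaks elsewhere.

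The share of peaks with GGAA was close to that of the whole list. GGAA on either strand lay within 100 bp of 423 of 503 centres (84.1%, 80.6 to 87.0%), against 83.8% of all 18037 peaks on the 24 chromosomes. In windows of the same length 2 kb to each side the share was 80.3% (77.7 to 82.7%). A part of these windows, 184 of 1006, touched another peak, and without them the share was 79.6% (76.7 to 82.2%). The mean number of cores per window was 1.97 at the centres and 1.85 to the sides. On chromosome 21 the intervals of centres and surroundings overlapped. In the whole list they lay apart, with 83.8% (83.3 to 84.3%) at the centres and 79.6% (79.2 to 79.99%) in the windows 2 kb away.

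The longer ETS core, read on both strands with the same allowance (each match also holds GGAA), was found at 5 of 503 centres (0.994%, 0.425 to 2.31%), against 2.62% of all peaks and 2.49% (1.69 to 3.64%) of the windows 2 kb away. For this motif the share on chromosome 21 was below that of the list. In the whole list it was in 2.62% (2.40 to 2.87%) of the centres and 2.98% (2.81 to 3.16%) of the windows 2 kb away. This order was the reverse of that for GGAA, and the limits overlapped. None of the 65 peaks of DYRK1A and none of the 30 of the interval held it. Absence says only that these letters were not in the window. The median GC content was 37.3% at the centres of chromosome 21, against 38.3% at the other peaks and 39.6% in the windows 2 kb away. No repeat was named at the centre of 308 peaks (61.2%, 56.9 to 65.4%), against 57.5% elsewhere. LINE repeats were named at 84 (16.7%) and SINE repeats at 56 (11.1%, 8.67 to 14.2%), against 18.1% and 14.2% elsewhere.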

How the data were processed

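The analysis used the 18070 mERG peaks of 1 ChIP library and 1 control library of VCaP cells. The score is the deposited MACS value, read from the header and the values as −10 times the log10 of the p-value (lowest 33.01, a p-value of 0.0005), not normalized to depth. Per the labels the authors used Bowtie2, Picard and HOMER on hg19, and the header names MACS peaks annotated with HOMER. The MACS version and threshold are not given in the sources used here. Reads were 75 bp. Depth is unknown, and Wilson and Poisson intervals cover counting error only.

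Peaks were placed by their centres. The rest of 21q ran from the end of the centromeric gap at 14338130, leaving out 13 peaks before it. Gene bodies came from GENCODE release 44 on GRCh37, as unions of protein-coding genes for lengths, and sequence from GRCh37. The 33 peaks on other sequences than the 24 chromosomes were left out of densities and motif shares. Named genes were the 12 with most peaks, those of the 5 strongest and 5 widest peaks, ERG, TMPRSS2, genes of the interval and its edges, and gene lists by role. Genes named beyond these (DIP2A, PAXBP1, DOP1B, SLX9, MIR99AHG, MIR125B2 and the genes of empty stretches) were chosen after their values were seen. ATP5J and ATP5O appear as ATP5PF and ATP5PO, and ZNF295 is an older symbol of ZBTB21. Members and lists were chosen with earlier results of these data known. The scripts ran in Python 3.11.15 with Matplotlib 3.10.9, SciPy 1.17.1, pandas 2.3.3 and NumPy 2.4.6, and counting steps were tested on simulated data. The alternatives were a minimum score of 50, the stronger 50% of peaks, all but the highest 1% of scores and any peak wider than 5 kb, clusters of peaks under 5 kb apart, and other lengths, edges and annotations.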

Additional observations from a re-analysis of the deposited data

How the results depend on the processing

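No paired analysis was possible because there is 1 ChIP library and 1 control. Leaving out the highest 1% of scores and any peak wider than 5 kb moved none of the results computed under it beyond counting error (for counts, 1.5 times). The gene with most peaks was not computed under it. With a minimum score of 50, 166 peaks were left (3.45 per Mb, 11.5 per Mb of gene body, 3.49 per Mb in the interval), the fullest step held 61, the median width was 725 bp, introns held 92.8%, and DYRK1A had 42. With the stronger 50% of peaks, 276 were left (5.73, 18.6 and 5.40 per Mb in the same order), with a median score of 53.6, a median width of 594 bp and 92.0% in introns. Both leave fewer peaks by construction. The ratio of the interval to the rest of 21q was 0.690 and 0.646 under these settings. Merging peaks under 5 kb apart gave 225 clusters (4.67, 12.8 and 6.35 per Mb), 33 in the fullest step, a ratio of 1.01, now above 1, and APP as the gene with most clusters (14, DYRK1A 3). Other lengths gave 14.3 peaks per Mb without gaps and a ratio of 0.384 per Mb of gene body. GENCODE introns held 82.5%, against 86.1% of the whole list. GGAA was in 96.8% of whole peaks, and the ETS core motif in 0.994% of windows. DYRK1A had 40.4 peaks per 100 kb.

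Chosen after seeing the data, leaving out the DYRK1A body gave 27.7 peaks per Mb of gene body, 69 in the fullest step and a ratio of 0.735 (0.507 to 1.07), and leaving out the BRWD1 body gave 3.65 per Mb and a ratio of 0.243. The causes of these shifts beyond the smaller numbers of peaks were not tested. With 1 library, the spread between replicates is unknown.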

Other observations

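The 13 peaks of chromosome 21 before the long arm, from 9470821 to 11149149, differed from the others. None reached a score of 50, 9 were intergenic, 4 lay in introns, and none had a neighbour under 5 kb away. The centre of 2 of them was annotated as a satellite repeat. The window of 1 of these, at chr21:10832500-10832889, held GGAA 19 times over both strands, the most of any window of the chromosome. The longer ETS core was not in it.

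Peak identifiers ran with position along chromosome 21, with exceptions. A block of 7 peaks from 10746535 to 11149149 had numbers that ran backwards, and 2 peaks, from 9470821 to 9497432, had numbers above 18000, outside the run of 9110 to 9612 of the chromosome. Whether positions were converted from another assembly was not tested.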
